A study of Homo sapiens with 6 samples.

Results

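Selective autophagy receptors are the proteins that choose what an autophagosome takes up. The 10 genes described here were taken by name from the gene column of the deposited count table, which holds 22481 genes. All 10 were found and all 10 passed the filter on low counts. They are 6 ubiquitin-binding receptors (SQSTM1, NBR1, OPTN, CALCOCO2, TAX1BP1 and TOLLIP), 3 receptors anchored in the mitochondrial outer membrane (BNIP3, BNIP3L and FUNDC1) and TBK1, a kinase that phosphorylates several of the receptors. RNA came from 143B cells, an established human osteosarcoma line, in 3 wells given celastrol for 24 h and 3 control wells. Celastrol is a plant triterpene, its dose is not in the labels, and the labels do not say whether control wells received a vehicle.

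A ubiquitin-binding receptor holds a ubiquitin chain on its cargo with one domain and a lipid-anchored ATG8 protein (LC3 or GABARAP) on the growing membrane with another. The mitochondrial receptors need no ubiquitin, since they sit in the organelle that is to be removed. Receptors are degraded together with their cargo, so the protein level of p62, the product of SQSTM1, is widely read as a measure of autophagic flux. The values below are transcript levels and hold no information on that turnover.

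The libraries held 38.4 to 39.5 M counts and 18778 to 18948 detected genes. Each replicate is 1 well, so p-values measure the spread between wells, possibly of 1 plate, which may be technical. In a bulk extract a change in all cells and in some of them cannot be told apart. On the first principal component, the wells closest to the opposite group were celastrol replicate 2 and control replicate 1. Of 8 osteoblast-lineage markers, SP7, COL1A2 and BGLAP stayed under 1 CPM (counts scaled to library size by TMM, trimmed mean of M values) in every well, while RUNX2, ALPL, COL1A1, SPARC and SPP1 were detected in every well. The 8 markers summed to 424 to 448 CPM with celastrol and 392.4 to 490 CPM in controls. Among these, edgeR called RUNX2 (log2 fold change -0.90, adjusted p = 1.15e-06) and ALPL (-1.18, adjusted p = 0.00279) lower and COL1A1 (0.66, adjusted p = 0.00209) higher, and did not call SPARC and SPP1. The leukocyte and endothelial markers in the table (PTPRC, ITGAM, PECAM1, CDH5 and VWF) were all under 1 CPM in every well. Of 3 epithelial markers CDH1 and KRT19 were under 1 CPM, while EPCAM had 6.67 to 7.14 CPM with celastrol and 5.71 to 6.50 CPM in controls.

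The receptors went in both directions. With celastrol, SQSTM1, FUNDC1 and TOLLIP rose, OPTN, NBR1 and BNIP3L fell, and CALCOCO2, TAX1BP1, BNIP3 and TBK1 did not pass the test (edgeR's quasi-likelihood test, Benjamini-Hochberg adjusted p under 0.05 over the 15387 genes tested). Over all genes tested, 48.4% were called, 23.6% higher and 24.8% lower, a background close to the 6 of 10 seen here. The median log2 fold change of the 10 genes was -0.00019, and that of all genes tested was -0.00024. In CPM (counts scaled to library size) the groups did not overlap in 6 of the 10, against 56.9% of all genes. BNIP3L, counted among the 6, overlapped in FPKM (fragments scaled by gene length and library size).

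The receptors differed widely in the size of their change. OPTN was 3.33-fold lower, a change larger in size than that of all but 2.89% of the genes tested. SQSTM1 was 1.61-fold higher, and 22.3% of genes changed by more. NBR1, BNIP3L, FUNDC1 and TOLLIP changed by less than 1.5-fold.

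RefSeq promoter windows (GRCh38.p14, 250 bases before to 50 after an annotated start) were found for 9 of the 10 genes, and stretches of 4 are printed because they belong to the largest rise, the largest fall, the kinase that partners the gene that fell most, and the most abundant mitochondrial receptor. Each runs 5′ to 3′ and ends at the base before the start, with a motif match in capitals.
SQSTM1: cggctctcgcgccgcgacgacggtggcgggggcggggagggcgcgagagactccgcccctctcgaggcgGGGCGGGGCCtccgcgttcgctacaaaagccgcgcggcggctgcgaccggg
OPTN: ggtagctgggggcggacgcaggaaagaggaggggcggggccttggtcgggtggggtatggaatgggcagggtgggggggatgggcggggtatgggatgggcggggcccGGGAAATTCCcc
TBK1: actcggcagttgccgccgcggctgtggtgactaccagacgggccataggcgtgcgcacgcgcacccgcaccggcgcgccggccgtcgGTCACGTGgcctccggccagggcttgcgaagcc
BNIP3: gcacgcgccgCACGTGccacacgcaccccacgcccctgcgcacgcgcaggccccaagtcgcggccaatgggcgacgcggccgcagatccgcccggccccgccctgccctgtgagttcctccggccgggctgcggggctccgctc

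These lie at chr5:179820785-179820904 on the plus strand for SQSTM1 (the third of its 3 windows), chr10:13099962-13100081 plus for OPTN, chr12:64452000-64452119 plus for TBK1 and chr10:131981924-131982067 minus for BNIP3. Both strands were searched for TGACNNNGC (the core of the antioxidant response element bound by NRF2), GTCACGTG (a site of the lysosomal factors TFEB and TFE3), the loose NF-kB pattern (3 G, any 5 bases, 2 C) and TACGTG (a hypoxia response element core). GGGAAATTCC, a form of that pattern, and CACGTG, which lies within GTCACGTG, were added after the promoters had been read. GGGAAATTCC occurred in both overlapping OPTN windows, at the same site, and in 0.162% of all 35116 windows, starting 12 bases before the upstream OPTN start. Because it was added after the OPTN promoter had been read, its presence there is no test. An exact sequence is also bound to be rarer than the loose pattern it belongs to. The loose pattern, capitalised in SQSTM1, was in 58.7% of all windows and in 61.7% of the 27305 genes with a window. It was in all of the 9 genes but TAX1BP1, and so separates little. The GGGCGGGGCC marked in SQSTM1 also lies in the printed OPTN stretch, in lower case there. GTCACGTG was found in TBK1 alone among the 9 genes, and in 2.40% of all windows and 2.93% of genes. CACGTG, capitalised in BNIP3 and also within the TBK1 match, was in 7.26% of windows and 8.77% of genes. As CACGTG too was added after the promoters had been read, its presence there is no test. TGACNNNGC was found in TOLLIP and CALCOCO2, and in 13.3% of all windows and 16.1% of genes. It was absent from the SQSTM1 windows, but bases further than 250 before an annotated start were not searched. TACGTG, searched as the hypoxia core, was in none of the 9 genes, in 3.24% of all windows and in 3.98% of genes. CACGTG, found in BNIP3 and TBK1, shares the bases ACGTG with it. The absence of TACGTG therefore does not show that these windows lack a hypoxia response element. A match describes letters in a short window, and binding was not measured.

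SQSTM1 (NCBI gene 8878, chromosome 5, 179806393 to 179838078) encodes p62, which gathers ubiquitinated proteins into condensates and also binds KEAP1. Its level was 546, 444 and 551 CPM in celastrol replicates 1, 2 and 3, against 278, 303 and 379 CPM in control replicates 1, 2 and 3. The lowest celastrol well was above the highest control well, and celastrol replicate 2 and control replicate 3 lay closest together. The log2 fold change was 0.68 (SE 0.13, adjusted p = 0.00342). It stayed called in all 16 alternative analyses, with log2 fold changes of 0.59 to 0.82. MRNIP, on the opposite strand, shares 20.7% of the exon bases of SQSTM1 in GENCODE, and the labels describe a strand-marking library without saying whether counting used it. MRNIP had 359 to 439 counts with celastrol and 367 to 439 in controls. MGAT4B, also on the opposite strand, shares 1.37% of those bases and had 9423 to 9900 counts with celastrol and 9255 to 10414 in controls. SQSTM1 had 17533 to 21941 counts with celastrol and 10690 to 14599 in controls, and the part of either neighbour in them was not tested.

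NBR1 (gene 4077, chromosome 17, 43170409 to 43211688) encodes a relative and partner of p62 that binds ubiquitin through a similar domain. It had 138, 139 and 140 CPM in celastrol replicates 1, 2 and 3, against 162, 197 and 184 CPM in control replicates 1, 2 and 3. Every celastrol well was below every control well, and the celastrol wells differed among themselves by far less (coefficient of variation 0.848%) than the control wells (9.69%). The control wells also varied more in every other gene described here except TOLLIP and TBK1, so a larger control spread is not particular to NBR1. NBR1 fell, with a log2 fold change of -0.38 (SE 0.070, adjusted p = 0.000208), called in all 16 alternatives. SQSTM1 and NBR1, whose proteins bind each other, therefore went opposite ways. The log2 ratio of their FPKM (fragments scaled by gene length and library size) was 2.87 ± 0.175 with celastrol and 1.80 ± 0.214 in controls, a difference of 1.07.

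OPTN (gene 10133, chromosome 10, 13100082 to 13138308) encodes optineurin, a receptor for damaged mitochondria and bacteria that binds TBK1 and restrains NF-kB signalling. It had 11.4, 13.1 and 11.5 CPM in celastrol replicates 1, 2 and 3, against 33.2, 42.3 and 44.2 CPM in control replicates 1, 2 and 3. The groups were far apart, with control replicate 1 the lowest control well. Its log2 fold change of -1.73 (SE 0.12, adjusted p = 5.15e-09) placed OPTN 43rd of all genes by adjusted p. It was called in all 16 alternatives, with log2 fold changes of -1.92 to -1.44. CCDC3, on the opposite strand, shares 2.86% of its exon bases and had 310 to 389 counts with celastrol and 358 to 506 in controls, and its part in the OPTN counts was not tested.

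CALCOCO2 (gene 10241, chromosome 17, 48831035 to 48865245) encodes NDP52, a receptor for bacteria and mitochondria. It had 64.8, 65.3 and 70.3 CPM in celastrol replicates 1, 2 and 3, against 64.7, 80.5 and 82.8 CPM in control replicates 1, 2 and 3. Control replicate 1 lay just below the lowest celastrol well, and the other control wells above all celastrol wells. CALCOCO2 did not pass the test at a log2 fold change of -0.19 (SE 0.087, adjusted p = 0.0859). It was called lower without control replicate 1 (log2 fold change -0.29, adjusted p = 0.00124), without that well and celastrol replicate 2 (-0.27, adjusted p = 0.00357) and with no filter on low counts (adjusted p = 0.0492). Its adjusted p ran between 0.00124 and 0.317 across 16 alternatives.

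TAX1BP1 (gene 8887, chromosome 7, 27739373 to 27829767) encodes a relative of NDP52 that takes up protein aggregates and, as a partner of the ubiquitin-editing enzyme A20, limits inflammatory signalling. It had 54.6, 60.7 and 61.3 CPM in celastrol replicates 1, 2 and 3, against 51.6, 59.7 and 64.0 CPM in control replicates 1, 2 and 3. The celastrol wells lay wholly inside the control range. Between the groups the log2 fold change was 0.0099 (SE 0.086, adjusted p = 0.937), and its sign turned in 5 alternatives with no call in any. JAZF1, on the opposite strand, shares 4.53% of its exon bases, with 184 to 304 counts with celastrol and 252 to 294 in controls, and its part was not tested.

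TOLLIP (gene 54472, chromosome 11, 1274371 to 1309632) encodes an adaptor with a ubiquitin-binding CUE domain, which also damps interleukin-1 and Toll-like receptor signalling. It had 74.2, 69.1 and 71.2 CPM in celastrol replicates 1, 2 and 3, against 64.3, 61.6 and 64.0 CPM in control replicates 1, 2 and 3. Every celastrol well was above every control well, by a small margin. At 0.18 on the log2 scale (SE 0.070) the difference was close to the threshold (adjusted p = 0.0470). The call was lost without any 1 celastrol replicate (adjusted p = 0.196, 0.0557 and 0.116 without replicates 1, 2 and 3), without control replicate 2 (0.137) or 3 (0.0697), with no filter (0.0791) and with at least 10 CPM required in 3 libraries (0.0666). Across 16 alternatives its adjusted p ran between 0.0161 and 0.196. TOLLIP-DT (chromosome 11, 1309708 to 1310707), a noncoding gene that starts beside TOLLIP on the other strand and was named after its values were seen, had 76, 78 and 104 counts in celastrol replicates 1, 2 and 3, against 226, 213 and 246 counts in control replicates 1, 2 and 3. It fell (log2 fold change -1.46, SE 0.21, adjusted p = 1.72e-05), and the exons of the pair do not overlap in GENCODE.

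**Figure D1:**
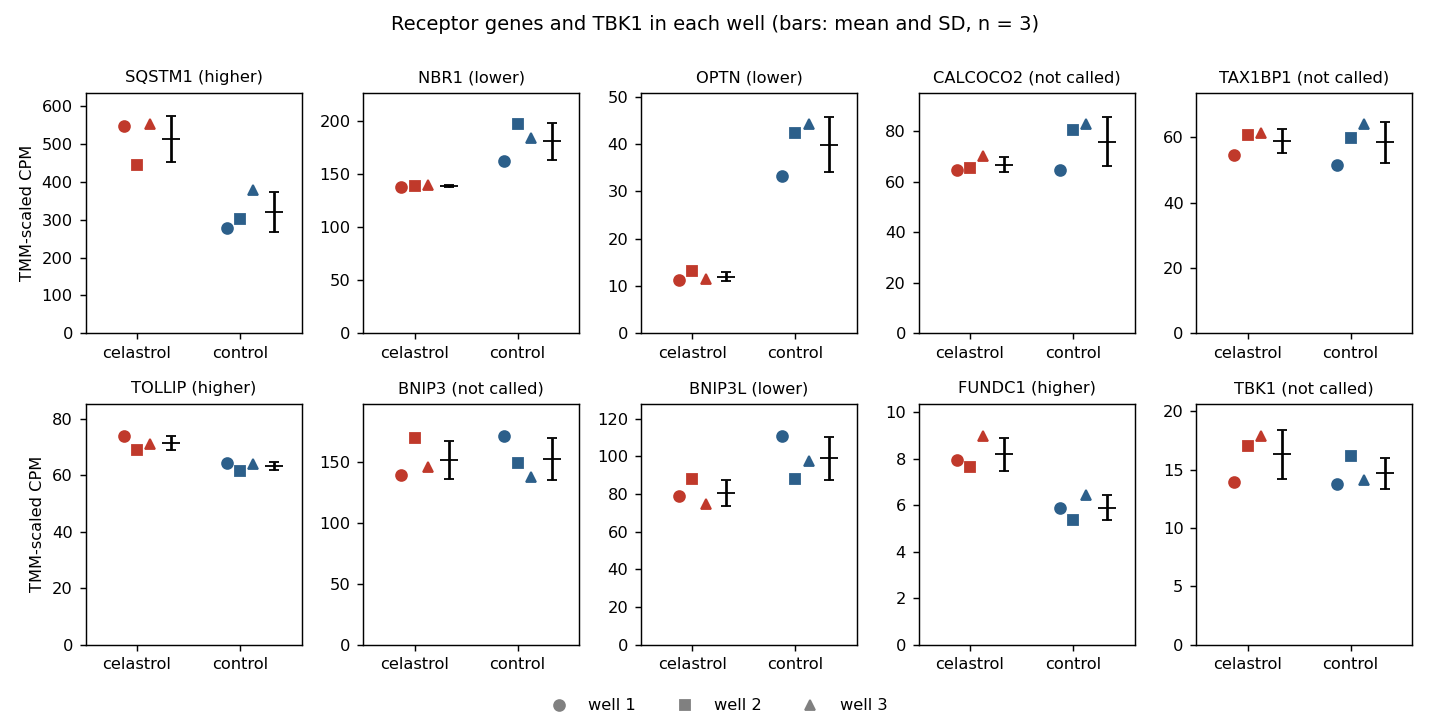
TMM-scaled CPM (vertical axes from 0) of the 10 genes, with celastrol wells left and control wells right of each panel. Symbols mark wells 1, 2 and 3 and bars give mean and SD (n = 3). Relative to its level OPTN shows the widest gap between the groups, and the wells of CALCOCO2, TAX1BP1, BNIP3 and TBK1 overlap.

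Among the mitochondrial receptors, BNIP3 (gene 664, chromosome 10, 131967684 to 131981923) and BNIP3L, which encodes NIX (gene 665, chromosome 8, 26383054 to 26413127), are paralogues of the BCL2 family, and FUNDC1 (gene 139341, chromosome X, 44523639 to 44542859) is unrelated to them. BNIP3 is a hypoxia-induced gene in many cell types, and NIX clears mitochondria from maturing red cells. BNIP3 had 140, 170 and 146 CPM in celastrol replicates 1, 2 and 3, against 172, 149 and 138 CPM in control replicates 1, 2 and 3. The groups overlapped, with the highest celastrol well within the control range. With a log2 fold change of -0.010 (SE 0.085, adjusted p = 0.934) BNIP3 did not pass, and the sign turned in 6 of 16 alternatives with no call in any. RefSeq names 46 pseudogenes after BNIP3, none of them in the count table, so its count is uncertain as far as reads shared with those copies go.

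BNIP3L had 78.8, 88.1 and 74.8 CPM in celastrol replicates 1, 2 and 3, against 111, 88.1 and 97.6 CPM in control replicates 1, 2 and 3. Celastrol replicate 2 and control replicate 2 stood at the same level to 3 digits, and in FPKM the groups overlapped there, at 25.2 in the celastrol well and 24.5 in the control well. BNIP3L fell by 0.30 in log2 units (SE 0.085, adjusted p = 0.00834). Leaving out celastrol replicate 3 ended the call (adjusted p = 0.0537), as did limma on the FPKM values, log2-transformed after adding 1 (0.0615) or 0.1 (0.0564). Its adjusted p ran between 0.000354 and 0.0615 across 16 alternatives. PNMA2, on the opposite strand, shares 7.66% of the exon bases of BNIP3L and had 2951 to 3005 counts with celastrol and 2759 to 2938 in controls. BNIP3L itself had 2948 to 3482 counts with celastrol and 3348 to 4276 in controls, and the part of PNMA2 in them was not tested.

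FUNDC1, a receptor controlled by phosphorylation near its ATG8-binding motif, was the least abundant of the 10 in CPM. It had 319, 302 and 355 counts in celastrol replicates 1, 2 and 3, against 226, 204 and 248 counts in control replicates 1, 2 and 3. In CPM these were 7.94, 7.64 and 9.005 with celastrol, against 5.87, 5.37 and 6.44 in controls, with no overlap. FUNDC1 rose by 0.48 in log2 units (SE 0.16, adjusted p = 0.0185). Leaving out celastrol replicate 3 (adjusted p = 0.0951) or control replicate 2 (0.0747) ended the call, and its adjusted p ran between 0.00285 and 0.0951 across 15 alternatives.

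TBK1 (gene 29110, chromosome 12, 64452120 to 64502114) encodes a kinase that phosphorylates OPTN and p62, which strengthens their hold on ubiquitin or ATG8 proteins, and that also drives interferon signalling. It had 13.97, 17.1 and 17.9 CPM in celastrol replicates 1, 2 and 3, against 13.8, 16.2 and 14.1 CPM in control replicates 1, 2 and 3. Celastrol replicate 1 lay inside the control range. TBK1 did not pass (log2 fold change 0.15, SE 0.13, adjusted p = 0.347), with no call in any of 16 alternatives. An antisense gene that was not analysed here shares 14.7% of the TBK1 exon bases in GENCODE, and a noncoding one 5.51% of those of NBR1. The log2 ratio of OPTN to TBK1 in FPKM was -0.53 ± 0.175 with celastrol and 1.35 ± 0.194 in controls.

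**Figure D2:**
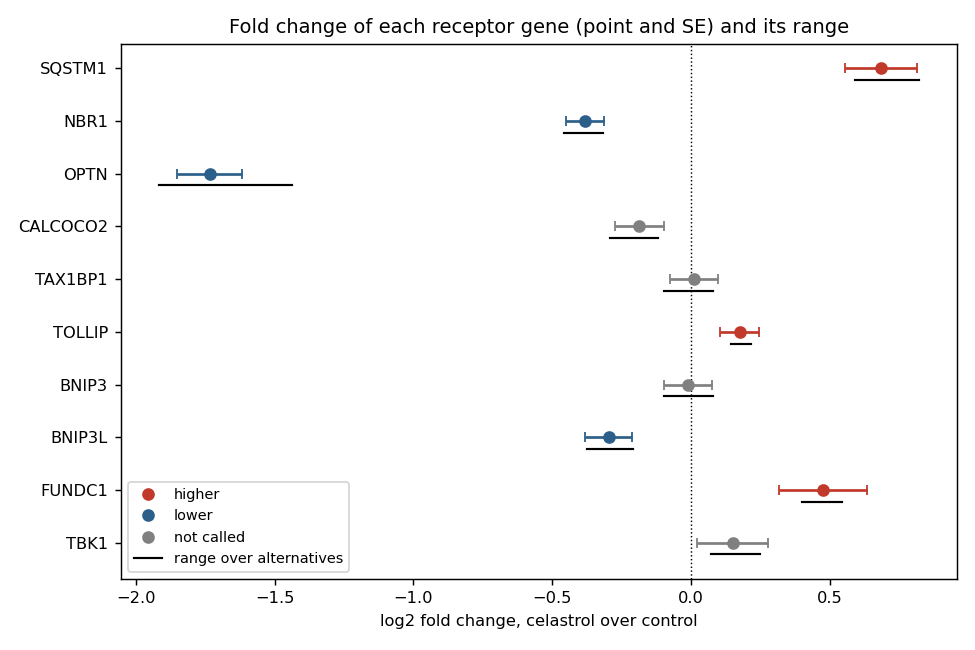
Log2 fold change of celastrol over control (horizontal axis) for each gene, with points and SE from edgeR coloured by call. The black line under each point is the range over the alternative analyses, which crosses 0 for TAX1BP1 and BNIP3 and is widest for OPTN, from -1.92 to -1.44.

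Levels can be compared between genes in FPKM, which is scaled by length. With celastrol SQSTM1 stood alone at the top (160 ± 18.6 FPKM), above the range of BNIP3 (99.9 ± 10.6). BNIP3L (23.0 ± 2.02) and NBR1 (21.7 ± 0.0759) overlapped, and CALCOCO2 (18.0 ± 0.715), TOLLIP (17.0 ± 0.636) and TAX1BP1 (16.6 ± 0.989) overlapped in turn. FUNDC1 (7.88 ± 0.650), TBK1 (4.84 ± 0.600) and OPTN (3.35 ± 0.270) came last without overlap, with OPTN below the kinase.

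In control wells BNIP3 (97.8 ± 11.7 FPKM) and SQSTM1 (96.5 ± 15.2) led with overlapping ranges, followed by NBR1 (27.5 ± 2.64) and BNIP3L (27.4 ± 3.26), which overlapped too. CALCOCO2 (19.9 ± 2.49), TAX1BP1 (16.0 ± 1.62) and TOLLIP (14.6 ± 0.331) formed a chain in which each overlapped the next. OPTN (10.8 ± 1.54), FUNDC1 (5.51 ± 0.465) and TBK1 (4.24 ± 0.394) came last, with no overlap between neighbours. OPTN, lowest with celastrol, stood above both FUNDC1 and TBK1 here.

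The 10 genes together summed to 373, 364 and 379 FPKM in celastrol replicates 1, 2 and 3, against 315, 315 and 331 FPKM in control replicates 1, 2 and 3. SQSTM1 held 45.7%, 37.9% and 45.0% of that sum in the celastrol wells, against 26.8%, 29.1% and 34.3% in the control wells. Without SQSTM1 the sum was 212 ± 12.5 FPKM with celastrol and 224 ± 6.76 FPKM in controls, so the higher total was carried by SQSTM1. OPTN held 0.902% ± 0.0894 of the sum with celastrol and 3.38% ± 0.435 in controls. There were 53.5, 37.7 and 53.1 SQSTM1 FPKM for each OPTN FPKM in celastrol replicates 1, 2 and 3, against 9.30, 7.97 and 9.54 in control replicates 1, 2 and 3.

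**Figure D3:**
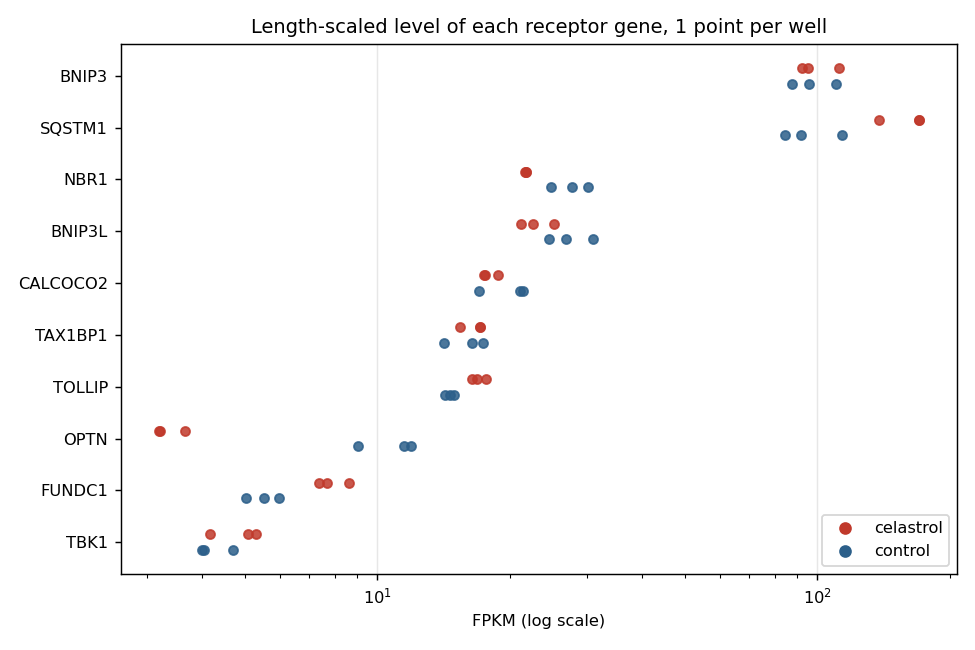
FPKM of the 10 genes on a log axis, 1 point per well, with celastrol above control in each row and rows ordered by the control mean. SQSTM1 leaves the level it shares with BNIP3 in controls, and OPTN drops below FUNDC1 and TBK1.

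Within related pairs, the log2 ratio of FPKM in the same well was compared, for 4 pairs chosen after the values were seen. BNIP3 over BNIP3L was 2.12 ± 0.0742 with celastrol and 1.83 ± 0.129 in controls, a difference of 0.28. CALCOCO2 over TAX1BP1 was 0.12 ± 0.0725 with celastrol and 0.31 ± 0.0532 in controls, a difference of -0.19. In these pairs and in SQSTM1 over NBR1 and OPTN over TBK1 the groups did not overlap. Since the pairs were chosen on these values, the differences are given as a description, with no test.

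The annotation in the deposited table places 9 of the 10 genes, all but TOLLIP, among the 67 tested genes of the KEGG pathway on animal mitophagy. Its Reactome terms put OPTN, TAX1BP1 and TBK1 in TNF signalling with 55 tested genes in all. OPTN fell and the other members of that trio did not pass the test. OPTN, SQSTM1 and TBK1 carry the KEGG term for amyotrophic lateral sclerosis, a motor neuron disease in which all 3 are known risk genes.

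Genes that work with the receptors were counted in 9 lists, 59 genes tested of 62 listed. Of these, 11 were called higher and 14 lower, against 23.6% and 24.8% of all genes, and no list moved in 1 direction only except the regulators of mitochondrial receptors. The median log2 fold change over the 59 genes was 0.026.

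Of 5 tested ATG8 genes, whose proteins are the docking sites for the receptors, 1 rose and 2 fell (median 0.14). GABARAP rose (log2 fold change 0.17, SE 0.066, adjusted p = 0.0373), GABARAPL2 fell (-0.35, SE 0.084, adjusted p = 0.00220) and GABARAPL1 fell (-0.42, SE 0.15, adjusted p = 0.0406). GABARAPL1 had 32.7, 32.4 and 34.9 CPM in the celastrol wells, against 33.0, 45.4 and 55.5 CPM in control replicates 1, 2 and 3, so control replicate 1 lay inside the celastrol range. The GABARAPL1 call was lost in 7 of 16 alternatives, among them when control replicate 2 (adjusted p = 0.105) or 3 (0.127) or any 1 celastrol replicate was left out, and its adjusted p ranged from 5.95e-06 to 0.127. The GABARAP call was lost in 6, among them when celastrol replicate 2 (0.0830), celastrol replicate 3 (0.192), control replicate 1 (0.0558) or control replicate 2 (0.122) was left out, with adjusted p from 0.0100 to 0.192.

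Of 5 genes around TBK1, AZI2, an adaptor of the kinase, rose (log2 fold change 0.52, SE 0.097, adjusted p = 0.000260) and TNIP1, a ubiquitin-binding restraint on NF-kB that resembles OPTN in its ubiquitin-binding region, fell (-0.65, SE 0.061, adjusted p = 1.78e-07). TNIP1 averaged 110 ± 3.17 CPM with celastrol and 172 ± 4.49 CPM in controls. Of 6 signalling partners of p62, 2 rose and 3 fell. KEAP1, the adaptor that p62 sequesters, rose (log2 fold change 0.99, SE 0.071, adjusted p = 1.02e-08), with 94.6 ± 4.05 CPM with celastrol and 47.8 ± 1.63 CPM in controls. NFE2L2, which encodes NRF2, rose by less (0.22, SE 0.070, adjusted p = 0.0137), a call lost without celastrol replicate 3 (0.0690) and without celastrol replicate 2 together with control replicate 1 (0.0540), while over 16 alternatives its adjusted p ran between 0.00451 and 0.0690. TRAF6, a ubiquitin ligase bound by p62, fell (-0.56, adjusted p = 0.000268), as did the atypical protein kinase C genes PRKCZ (-0.35, adjusted p = 0.00360) and PRKCI (-0.25, adjusted p = 0.00855). PRKCI, the last of the 3 by adjusted p and outside the naming rule, was not called without celastrol replicate 3 (0.0623).

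In the PINK1 pathway, which marks damaged mitochondria with ubiquitin for OPTN and NDP52, 2 of 10 genes rose and 1 fell. PINK1, the kinase that starts it, had 21.9, 20.1 and 21.6 CPM in celastrol replicates 1, 2 and 3, against 43.2, 51.9 and 48.3 CPM in control replicates 1, 2 and 3. PINK1 fell (log2 fold change -1.17, SE 0.094, adjusted p = 2.94e-08). The mitofusin gene MFN2 (0.24, adjusted p = 0.00367) and the mitochondrial ubiquitin ligase gene MUL1 (0.32, adjusted p = 0.00859) rose, and the MUL1 call was lost without celastrol replicate 1 (0.0701).

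Of 8 regulators of the mitochondrial receptors, 3 fell and 0 rose by edgeR. DESeq2 and limma also called 0 of them higher, and before adjustment edgeR gave 0 with p under 0.05 in that direction. All these methods used the same 6 libraries. Whether 0 of 8 differs from the 23.6% called higher over all genes was not tested. FBXL4, part of a ubiquitin ligase that limits BNIP3 and NIX protein, fell (log2 fold change -0.83, SE 0.13, adjusted p = 4.75e-05), and the hypoxia factor gene EPAS1 fell (-0.41, SE 0.077, adjusted p = 0.000260). HIF1A, which encodes the hypoxia factor known to drive BNIP3 and is outside the naming rule, had 197, 217 and 207 CPM in celastrol replicates 1, 2 and 3, against 260, 376 and 347 CPM in control replicates 1, 2 and 3 (-0.66, SE 0.12, adjusted p = 0.00153). BNIP3 itself did not pass the test, as given above.

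Of 5 other mitochondrial receptors, FUNDC2 rose (0.27, adjusted p = 0.0143) and NLRX1 fell (-0.37, adjusted p = 0.0134). FUNDC2 was not called without celastrol replicate 3 (0.0583) or control replicate 2 (0.0586), and NLRX1 not without celastrol replicate 1 (0.0581) or control replicate 3 (0.0891). Of 7 receptors for the endoplasmic reticulum, ATL3 rose (0.53, SE 0.082, adjusted p = 3.98e-05) and CALCOCO1, a paralogue of CALCOCO2, fell (-0.40, SE 0.091, adjusted p = 0.00127). Of 5 other tested cargo receptors and adaptors, the ferritin receptor NCOA4 rose (0.22, adjusted p = 0.00529) and the ribosome receptor NUFIP1 fell (-0.33, adjusted p = 0.0331), a call lost in 7 of 16 alternatives, among them when celastrol replicate 2 (0.0549), celastrol replicate 3 (0.147), control replicate 2 (0.147) or control replicate 3 (0.0807) was left out. Of 8 ubiquitin genes and linear chain enzymes, 2 rose and 1 fell. UBB, a polyubiquitin gene, rose (0.31, adjusted p = 0.000153). RBCK1, a subunit of the linear chain ligase, rose (0.24, adjusted p = 0.0145) but was not called when celastrol replicate 1 (0.0822), celastrol replicate 3 (0.1003) or control replicate 3 (0.0618) was left out.

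**Figure D4:**
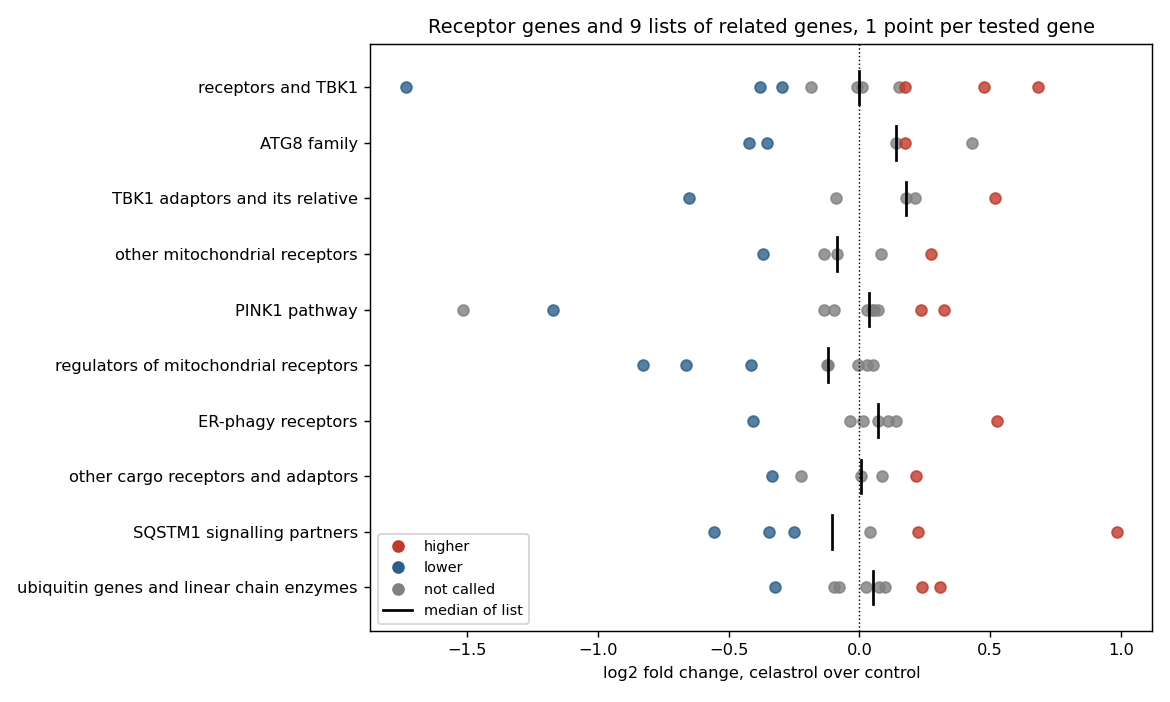
Log2 fold change of celastrol over control (horizontal axis) for the 10 receptor genes and the tested genes of 9 related lists, 1 point per gene coloured by edgeR's call, with black bars at list medians. The medians lie within 0.2 of 0 while single genes range from OPTN on the left to KEAP1 on the right.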

How the data were processed

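Libraries were made from oligo(dT)-purified mRNA by a strand-marking (dUTP) method and read on both ends, per the labels' protocols. The submitters' processing notes name cutadapt 1.9, HISAT2 2.2.1, StringTie 2.1.6, DESeq2, edgeR and hg38. For their roles, the annotation and strand use, nothing is stated. The deposited counts are whole reads per gene, not normalized. The deposited FPKM are the same counts scaled by the authors by length and library total (1 length per gene within 1e-06 in all 20198 genes compared). A count of 0 allows up to 3 counts (0.0760 to 0.0781 CPM, counting error only).

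Genes kept by filterByExpr were TMM-scaled and compared by edgeR 4.0.16 (quasi-likelihood, robust, R 4.3.3), checked on simulated data. SE is the absolute log2 fold change over the root of F. Alternatives used DESeq2 1.42.0, limma 3.58.1, other scalings and filters, and left-out wells. The 10 genes are printed whatever their result, and up to 2 called genes per direction from each list, apart from items not reported here. The members and lists were chosen with earlier results of these data known. Coordinates are RefSeq's (GRCh38.p14) and exon overlaps GENCODE 29's, as shares of all exon bases of a gene. The deposited FPKM imply counted lengths of 3263 bases for SQSTM1, 3629 for OPTN and 3416 for TBK1. The overlap within the counted lengths was not determined. Proteins were not analysed here.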

Additional observations from a re-analysis of the deposited data

How the results depend on the processing

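Across 36 genes and 16 alternatives (574 values), 516 kept their direction and call, 44 kept their direction but lost the call, 3 gained one and 11 changed sign without a call. The sign changes were in TAX1BP1 (log2 fold change -0.011 with at least 10 CPM in 3 libraries, -0.096 without celastrol replicate 2 and control replicate 1, and -0.096 to 0.080 over all alternatives) and BNIP3 (0.031 when scaled by library totals only, 0.032 from limma on the FPKM values with either pseudocount, and -0.098 to 0.080 over all). With wells left out singly, TAX1BP1 ran from -0.074 to 0.080 and BNIP3 from -0.098 to 0.080.

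Receptor genes called higher were 1 in place of 3 with at least 10 CPM required, where FUNDC1 was not tested, and 1 to 3 with wells left out, 1 without celastrol replicate 3 or control replicate 2. Receptor genes called lower were 2 to 4, the receptor FPKM sum was 48.2 to 56.8 higher and the SQSTM1 share 11.2 to 15.3 points higher. Context genes called higher were 7 to 12, with 7 without celastrol replicate 3. Library size alone moved the median of all genes to 0.041 and the split of all calls to 4170 higher and 3382 lower. The well numbers do not pair the wells in the labels, and same-numbered wells correlated at 0.058, 0.055 and 0.034 in their deviations. With the replicate block, 3 receptors were higher and 3 lower, and over all genes 3831 and 3928. Apart from the untested FUNDC1, the cause of these changes was not tested. FUNDC1 had the lowest counts of the receptors, 302 to 355 with celastrol and 204 to 248 in controls.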
